A study of Mus musculus with 32 samples.

Results

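Mouse embryonic stem cells (ESC) were sequenced in 2 library series that repeat the same comparison of genotypes with different clones, and the second series is set here against the first. All 24 ESC libraries of the 32 libraries in the study were used, 12 from the second series and 12 from the first. The second series holds the clones A01 and A02, labelled Smarce1-MD(R42A), and the clones 45 and 47, labelled Smarce1-MD. The first holds the Smarce1-MD(R42A) clones A04 and A10 and the Smarce1-MD clones 09 and 30. Each clone has 3 libraries, so each series has 2 clones and 6 libraries of each genotype. Membership of a series rests on unbroken runs of library numbers, since the labels name no date or batch. No clone is in both series, so the series and its set of clones cannot be told apart, and culture, RNA extraction, library preparation and sequencing cannot be told apart within it.

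All the cells are of strain 129S5/SvEvBrd, were untreated, and were grown on gelatin with serum and the cytokine LIF. Per the labels' protocols, TRIzol was used for RNA and the KAPA Hyper Prep kit for libraries. Every clone carries a tag on Smarce1, whose product BAF57 is a subunit of the SWI/SNF chromatin remodelling complexes, and no untagged cells are among them. From general knowledge, MD is taken to be a mitotic degron, a tag that has its protein destroyed around the end of mitosis, and R42A a version of the tag that lacks this activity. Genotype was a covariate, so that every change given here is between series within genotype.

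ESC hold a self-renewing state through a network of transcription factors around Pou5f1, Sox2 and Nanog. LIF acts through STAT3 to keep naive factors such as Klf4 and Tfcp2l1 on, while FGF and ERK signalling pushes cells toward a formative state. Serum supplies BMP signals that induce the Id genes. In such cultures single cells drift between naive, primed and rare 2-cell-like states, and levels of these genes are known to move with feeding, density and passage. In bulk RNA, fewer cells of a type and less RNA per cell cannot be told apart.

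Levels are CPM, the count of a gene scaled to a fixed library total, after TMM scaling, which assumes that most genes do not differ. A clone is the replicate: counts of its 3 libraries were summed. Clone values are given in the order A04, A10, 09 and 30 for the first series and A01, A02, 45 and 47 for the second. Changes are log2 of the second series over the first with their standard error (SE), and adjusted p-values come from the quasi-likelihood F-test of edgeR over 22025 genes with the Benjamini-Hochberg method. The SE was derived from that test, as the absolute change divided by the square root of its F statistic. A gene is called higher or lower where its adjusted p is under 0.05. Nothing in the labels says that clones or libraries were cultured apart, so p-values measure the spread between clone sums, which may be partly technical. Total counts per library ran from 44324117 to 96424443 for the first series, against 38699952 to 55463765 for the second. All 10 ESC markers, among them Zfp42, Tdgf1 and Dppa5a, were measured in every library, and the lowest value of any was 39.5 CPM.

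Series and genotype held the largest shares of the spread between the libraries, and which was larger depended on the genes taken. Over the 14570 genes above 1 CPM on average, 39.6% of the summed squares of log2 CPM lay between series, 32.1% between genotypes, 2.21% in their interaction, 11.7% between clones of a group and 14.4% between libraries of a clone. In the 2911 genes in the middle one of 5 equal groups by transcript GC content the order was the other way, with 18.4% between series and 47% between genotypes. The median absolute log2 ratio between libraries of the same genotype in different series had a median of 0.364 over 72 pairs. Between clones of the same genotype within a series, the median was 0.199 over 18 pairs in the first series, against 0.161 over 18 pairs in the second. For libraries of different genotypes in the same series the medians were 0.308 and 0.279, below the 0.364 for the same genotype in different series. The ranges overlapped, at 0.221 to 0.427 and 0.243 to 0.329 against 0.199 to 0.534.

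Of 22025 genes tested, 9514 were called, which is 43.2%, of which 5387 were higher in the second series (24.5%) and 4127 lower (18.7%). In 6610 genes, 30%, the 4 clones of one series all lay above the 4 of the other. The changes were lopsided in size: 1624 called genes were at least 2-fold higher and 276 at least 2-fold lower. Under upper quartile scaling, which moved the median of all genes from -0.05 to -0.21, the split turned to 4299 higher and 6884 lower. Directions near 0 therefore depend on the scaling, and changes are read here relative to a median of all genes of -0.05.

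The change followed the base composition of the transcripts. A few genes are shown by the first 90 bases of their coding sequence, spliced, 5′ to 3′, from GENCODE M21 on mm10, with G and C in capitals. They were chosen after their values were seen: Scand1 and Rpl36 from the 12 genes of largest rise and Cep290 and Med13 from the 12 of largest fall among genes of at least 5 CPM in the higher series whose clones did not overlap, and the pluripotency genes Utf1 and Nanog, which differed from each other.
Scand1: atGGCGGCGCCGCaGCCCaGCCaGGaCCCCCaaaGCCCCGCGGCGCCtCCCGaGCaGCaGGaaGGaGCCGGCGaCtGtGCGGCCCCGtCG
Rpl36: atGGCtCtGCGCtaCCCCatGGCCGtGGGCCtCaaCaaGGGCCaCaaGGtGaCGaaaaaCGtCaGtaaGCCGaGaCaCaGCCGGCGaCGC
Utf1: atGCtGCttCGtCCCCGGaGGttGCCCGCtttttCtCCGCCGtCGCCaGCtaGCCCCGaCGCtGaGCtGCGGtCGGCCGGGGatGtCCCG
Nanog: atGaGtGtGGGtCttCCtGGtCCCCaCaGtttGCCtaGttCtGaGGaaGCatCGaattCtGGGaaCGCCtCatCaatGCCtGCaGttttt
Med13: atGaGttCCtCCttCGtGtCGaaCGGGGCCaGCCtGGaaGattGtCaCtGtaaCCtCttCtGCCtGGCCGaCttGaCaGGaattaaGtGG
Cep290: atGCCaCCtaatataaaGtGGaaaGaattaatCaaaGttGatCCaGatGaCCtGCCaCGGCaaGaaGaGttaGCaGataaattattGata
Scand1, a SCAN domain gene at chr2:156311847-156312704, minus strand, has a coding sequence of 75.6% G and C, and its change was 6.02 ± 0.23. Rpl36, of the large ribosomal subunit, at chr17:56613416-56614243, plus strand, is at 61.6% and changed by 3.05 ± 0.06. Utf1, a chromatin-bound factor of pluripotent cells at chr7:139943789-139945112, plus strand, is at 65.7% and changed by 2.46 ± 0.08. These genes rich in G and C were all higher in the second series. Nanog, at chr6:122707489-122714633, plus strand, is at 52.7% and its change was -0.16 ± 0.07, which was not called. Med13, of the Mediator kinase module, at chr11:86267033-86357602, minus strand, is at 44.2% over the whole coding sequence and changed by -0.75 ± 0.07. Its first 90 bases, shown here, are at 53.3%, above the 50% of those of Nanog, and so do not show that lower content. Cep290, of the ciliary transition zone, at chr10:100487558-100574840, plus strand, is at 38.8% and changed by -0.74 ± 0.07. The positions are those of the whole genes.

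The same gradient held over all expressed genes. Genes were split into 5 equal groups, or quintiles, by transcript GC content. In the lowest, from 30.8% to 43.9%, the median change was -0.32, and of 2912 genes 52 were called higher and 1780 lower. The medians in the next 3 quintiles were -0.22, -0.05 and 0.27. In the quintile with the highest GC content, from 55.4% to 72.8%, the median was 0.78, and 2511 of 2912 genes were called higher and 13 lower. Across genes, GC content and the change had a Pearson correlation of 0.72 and a Spearman correlation of 0.78, as a description over genes that share the same libraries. GC content of the coding part alone gave 0.72 and 0.80 over 12787 genes. Single-exon genes showed it as well: their median was -0.36 in the lowest quintile and 0.79 in the highest, against -0.37 and 0.76 for genes of over 12 exons. Length moved the change less. The median went from 0.11 in the shortest quintile of genes to -0.18 in the longest.

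**Figure D1:**
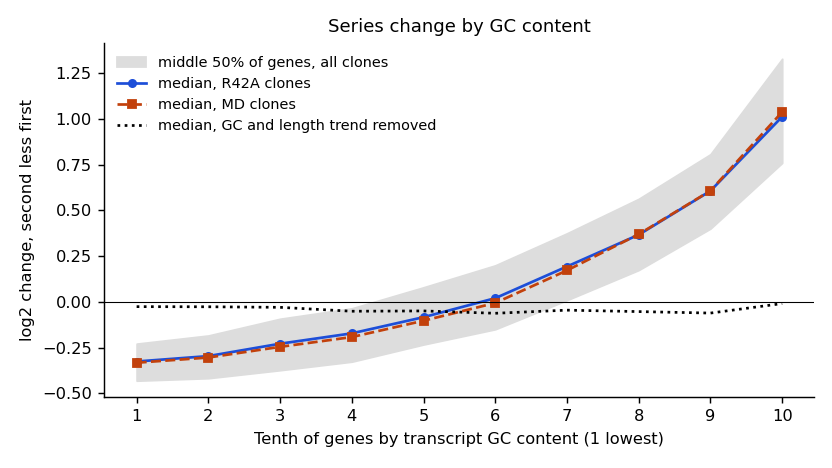
Median log2 change of the second series against the first in 10 equal groups of genes by transcript GC content, in R42A clones (circles), in MD clones (squares) and after the GC and length trend was removed (dotted); the grey band holds the middle 50% of genes over all clones. In the group of lowest GC the medians were -0.33 in both genotypes, and in that of highest GC they were 1.01 in R42A and 1.04 in MD.

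Single libraries separated by series on this measure. For each library, the median deviation from the mean of all 24 was taken in the highest and the lowest GC quintile, and the difference is called its GC gradient. It ran from -1.15 to -0.09 in the 12 first-series libraries, with a median of -0.47, and from 0.45 to 0.70 in the 12 second-series libraries, with a median of 0.58. The groups did not overlap. Within the first series it varied between libraries of a clone: in A04 the 3 libraries had -0.99, -0.09 and -0.79, and the SD within a clone was 0.19 to 0.47. In the second series that SD was 0.02 to 0.10. The gradient is centred on all 24 libraries, so its sign says only which series lies above the other.

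**Figure D2:**
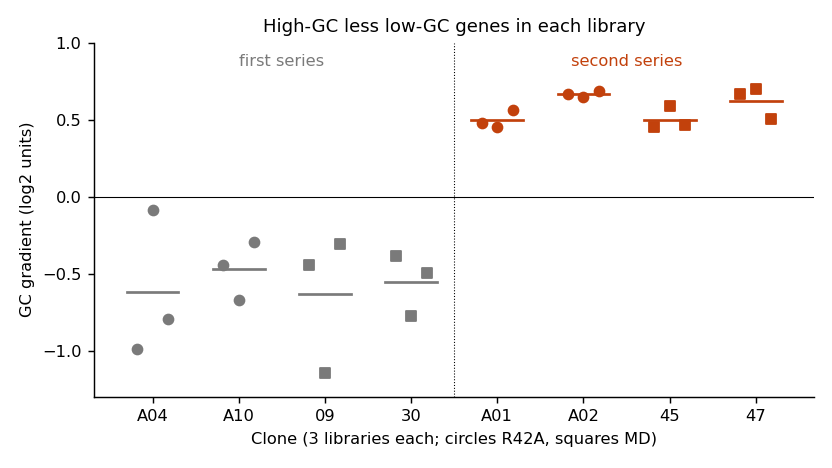
GC gradient of each library in log2 units, by clone; each point is a library, each short line the mean of a clone, circles are R42A and squares MD. All 12 libraries of the first series lie below 0, from -1.15 to -0.09, and all 12 of the second above it, from 0.45 to 0.70.

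An alternative fit removed the trend over GC content and exonic length in each clone sum before the test. It called 4024 genes, 18.3% of the genes tested, with 2045 higher (9.28%) and 1979 lower (8.99%). Of the 9514 genes called at first, 2607 were called in the same direction, 27.4%, and 382 in the opposite one. Removing the GC of the coding part and the number of exons as well left 3385 calls, 15.4%, with 7.97% higher and 7.4% lower, and 1957 genes were called in 1 direction in all 3 fits, 1327 higher and 630 lower. In what follows, "with the trend removed" means the fit without the GC and length trend, and a call of a gene described below that this fit kept and the fuller one lost is stated beside it. A trend fit also removes any real difference that runs along GC content, and which share of the gradient is of that kind was not tested.

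The 12 genes with the largest rise were taken from called genes with a mean of at least 5 CPM in the higher series and no overlap of clones, a rule that leaves out lower genes with larger rises, such as Hist1h2ab. Scand1, Adat3, Gdf1 and Prr7 stayed under 1 CPM in every first-series clone and met that level through the second series alone. All 12 were also called higher with the trend removed. Scand1 measured 0.08003, 0.157, 0.204 and 0.125 CPM in the first-series clones and 8.53, 7.32, 10.9 and 10.4 CPM in the second-series clones. The clones did not overlap, and the adjusted p was 3.0e-07. Its change with the trend removed was 3.77. Pcsk1n, the gene of proSAAS, an inhibitor of a prohormone convertase, measured 0.391, 0.513, 0.336 and 0.348 CPM against 11.3, 13.7, 9.06 and 16.3, a change of 4.99 ± 0.23 with an adjusted p of 7.5e-07. Its transcript GC is 57.3% and its coding GC 72.1%, and it kept 4.25 with the trend removed. Dpm3, a subunit of dolichol-phosphate mannose synthase, measured 1.29 to 1.77 CPM in the first series and 12.4 to 13.5 CPM in the second, a change of 3.01 ± 0.11 and of 2.54 with the trend removed. Rpl36 measured 64.1, 60.1, 63.1 and 55.2 CPM against 523, 540.4, 456 and 491, with an adjusted p of 1.1e-07 and 1.84 with the trend removed. In these 4 genes the lowest clone of the second series stood above the highest of the first by more than the spread within either.

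Of the other genes with the largest rise, Gdf1, a ligand of the TGF-beta family, changed by 4.57 ± 0.70, Prr7, a proline-rich synaptic protein, by 4.52 ± 0.22, and Adat3, a tRNA deaminase subunit, by 4.21 ± 0.21. Ier5l changed by 3.35 ± 0.12, Rbmxl2, a retrogene of the RNA-binding Rbmx, by 3.10 ± 0.09, and Tpgs1, of the tubulin polyglutamylase complex, by 2.92 ± 0.11. With the trend removed, Gdf1 was at 2.82, Prr7 at 2.21, Adat3 at 2.53, Ier5l at 1.80, Rbmxl2 at 1.09 and Tpgs1 at 1.12. They are low genes: in the first series all 6 were under 11 CPM in every clone, and Gdf1 was at 0 in A10. The linker histone H1fx measured 3.73 to 4.202 CPM in the first series and 29.96 to 40.1 CPM in the second, a change of 3.06 ± 0.09, of which 0.41 was left with the trend removed. Junb, an AP-1 subunit, measured 5.35, 5.03, 3.86 and 3.84 CPM against 50.9, 53.3, 23.9 and 31.7, a change of 3.09 ± 0.13 with an adjusted p of 4.5e-07 and 1.70 with the trend removed. The R42A clones of the second series were the highest in Junb. Gdf1 shares its locus with another gene and the counting is not known to use strand, so its reads may be split.

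Under the same rule the falls were smaller. Xlr3c, Xlr3b and Xlr3a, X-linked lymphocyte-regulated genes and near-identical copies that may share reads, changed by -1.45 ± 0.34, -1.20 ± 0.28 and -0.82 ± 0.21. Xlr3b measured 41.7, 56.01, 41.3 and 52.5 CPM against 12.2, 13.3, 32.2 and 34.9, so the R42A clones of the second series were the lowest. With the trend removed, the adjusted p was 0.044 for Xlr3c, 0.053 for Xlr3b and 0.11 for Xlr3a. Without clone A02 the adjusted p of Xlr3a was 0.06 in the fit on the values as scaled. Mep1b, a metalloprotease, measured 9.61, 7.5, 18.4 and 11.7 CPM against 4.67, 4.14, 5.75 and 7.24, a change of -1.09 ± 0.17 with an adjusted p of 7.7e-04. Lbhd1 measured 30.01, 21.5, 28.2 and 27.6 CPM against 15.6, 12.5, 12.1 and 11.3, a change of -1.06 ± 0.13 with an adjusted p of 2.2e-04. Polr2k, a subunit shared by the RNA polymerases, measured 15.9, 16.5, 15.8 and 14.2 CPM against 8.96, 10.1, 7.97 and 8.52, a change of -0.81 ± 0.08. These genes kept most of their fall with the trend removed, at -0.92, -0.91 and -0.60. Nlrp9b, of the NLR family, changed by -0.99 ± 0.15, the zinc finger gene Zfp607b by -0.79 ± 0.11, the transposon-derived factor Zbed6, which lies within another gene, by -0.77 ± 0.12 and the kinase Wnk3 by -0.75 ± 0.07. Those 4 were all called with the trend removed as well, between -0.41 and -0.72. So were Cep290 and Med13, given above, at -0.37 and -0.39.

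**Figure D3:**
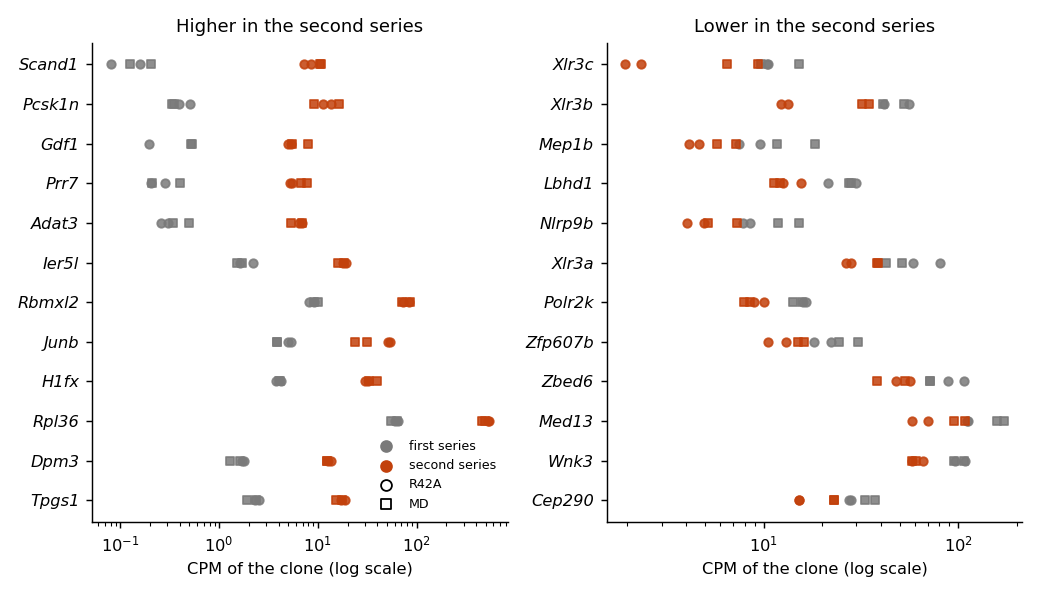
CPM of each clone, on a log axis, for the 12 genes with the largest rise and the 12 with the largest fall among called genes with a mean of at least 5 CPM in the higher series, not in both, whose clones do not overlap; grey is the first series, red the second, circles are R42A and squares MD. Scand1 lies at 0.08003 to 0.204 CPM in the first series and at 7.32 to 10.9 CPM in the second, and the falls on the right are mostly within 2-fold.

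Each list count below is to be read beside the shares of all genes tested. These were 24.5% higher and 18.7% lower, or 9.28% and 8.99% with the trend removed. A count given without a clone is to be read beside all 22085 to 22838 genes of that fit. Of these, 3529 were lower without A04, 4810 without A10 and 2953 without 09. Without 30, A02 and 47 they were 3073, 3028 and 3145, against 4127 with every clone. Higher were 4963 without A04, 6115 without A10, 4695 without 09 and 5016 without 47, against 5387 with every clone. Among pluripotency genes, the core factors did not move together. Pou5f1, which encodes OCT4, measured 869, 794, 782 and 796 CPM in the first series, against 1771, 1811, 1284 and 1409.9 in the second, a change of 0.94 ± 0.08 with an adjusted p of 1.6e-05. Over single libraries the lowest, median and highest values were 554, 819 and 1054 CPM in the first series, against 1203, 1568 and 1903 in the second. No library of the first series reached the lowest of the second. Sox2 measured 207, 209, 227 and 222 CPM against 331, 321, 324 and 381, a change of 0.65 ± 0.06 with an adjusted p of 2.3e-05, and Nanog 666, 719, 636 and 644 against 545, 682, 581 and 575, with an adjusted p of 0.093. Nanog overlapped between the series, and without clone A02 it was called lower, at -0.22 with an adjusted p of 0.028. With the trend removed Pou5f1 was at 0.17 with an adjusted p of 0.17, Nanog at 0.01 and Sox2 at 0.58 with an adjusted p of 1.7e-04. The fuller fit left Sox2 at 0.21 with an adjusted p of 0.07, not called. Utf1 measured 58.3 to 68.5 CPM in the first series and 297 to 369 CPM in the second and kept 0.87 with the trend removed, with an adjusted p of 5.5e-05. Foxd3, a forkhead factor of the pluripotent epiblast, changed by 1.91 ± 0.14 and was at 0.20 with the trend removed. Of 14 general pluripotency genes tested, 5 were called higher and 3 lower, with a median of 0.11, and 2 and 2 with the trend removed.

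Naive pluripotency genes were called in both directions: 9 of 23 higher and 7 lower, with a median of -0.11, against -0.05 over all genes. Without clone 30, 3 were called lower. Klf2, a target of the MEK and ERK axis in naive cells, measured 65.6, 45.1, 75.7 and 74.3 CPM against 190.2, 137, 154 and 195, a change of 1.39 ± 0.15 with an adjusted p of 1.3e-04, and of 0.11 with the trend removed. Nr0b1, the nuclear receptor DAX1, measured 41.6, 32.5, 30.4 and 28.2 CPM against 124, 94.98, 66.4 and 63.5, a change of 1.36 ± 0.12 and of 0.83 with the trend removed, still called at 0.0036. Klf4, a direct STAT3 target, measured 111, 97.5, 49.6 and 51.5 CPM against 195, 204, 89.1 and 96.5. Its change was 0.91 ± 0.06 with an adjusted p of 3.5e-06, although the series overlapped, with R42A clones above MD clones in both. Esrrb, an orphan nuclear receptor, changed by 0.46 ± 0.05 and by 0.01 with the trend removed. With the trend removed, 3 naive genes were called higher and 2 lower, a share not far from the 18.3% of all genes.

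Of 18 formative and primed genes 7 were called higher and 2 lower, with a median of 0.18. The shares of all genes were 24.5% and 18.7%. Tcf15, a formative bHLH factor, changed by 1.34 ± 0.20 and Etv4, an ETS factor downstream of FGF, by 0.57 ± 0.08. Both turned sign with the trend removed, to -0.57 and -0.33, and of this list none was then called higher and 3 lower. Etv4 was at -0.28 and not called in the fuller fit (adjusted p 0.075).

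The 2-cell-like genes, which mark a rare state with an early-embryo programme, differed widely between clones of the same series. Of 23 tested, Calcoco2 alone was called, and the list's median was -0.90, or -0.80 with the trend removed. Zscan4c, a marker of that state, measured 197, 28.6, 31.99 and 46.3 CPM against 73.8, 55.8, 14.03 and 23.7, and Duxf3, of the family that activates it, changed by 0.36 ± 0.38. A04 was the highest clone for Zscan4c, and A10, of the same genotype and series, was the lowest of the first series. The list's values depended on these clones: without A04 the list's median was -0.34, and without A10, 21 members were called lower. The summed level ran from 214 to 1146 CPM in the first series, against 168 to 423 in the second series, so the ranges overlapped. Calcoco2 measured 39.1, 48.9, 139 and 209 CPM against 22.3, 32.2, 82.97 and 121, a change of -0.73 ± 0.18 with an adjusted p of 0.01, or 0.074 without A10. Several members are near-identical copies that may share reads. Germline genes fell or did not pass: 13 of 23 were called lower and none higher, with a median of -0.39. Sycp2, of the synaptonemal complex, changed by -0.87 ± 0.14, Tex15, of meiotic recombination and transposon silencing, by -0.75 ± 0.11, Hormad1, of the meiotic chromosome axis, by -0.39 ± 0.06 and the kinase gene Stk31 by -0.38 ± 0.08. The list has a median transcript GC of 43.9%, below the 49.5% of all genes, and with the trend removed 5 members were called lower, Sycp2 and Tex15 among them. The fuller fit called neither of these genes, at adjusted p of 0.066 and 0.064, and Hormad1 and Stk31 were not called in either GC fit.

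Lists of genes that answer to the culture medium differed in how many members were called higher, from 4 of 19 in the SRF and YAP list to 11 of 18 in the LIF and STAT3 list. In the LIF and STAT3 list 11 of 18 were called higher and 3 lower, with a median of 0.42. Bcl3, a nuclear IkB protein, measured 21.01, 20.3, 17.9 and 17.7 CPM against 43.6, 46.8, 33.8 and 38.4, a change of 1.08 ± 0.06, and the kinase gene Pim3 changed by 1.07 ± 0.08. Both were called in the other direction once the trend was removed, at -0.32 and -0.23, and the list had 3 higher and 4 lower. Its median was then -0.081, close to the -0.079 of all genes, so LIF response genes as a group had no direction in that fit.

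The Nodal and BMP list was 9 of 17 higher and 2 lower, with a median of 0.62, and 4 and 2 with the trend removed, where the median was 0.35. Id1, an inhibitor of bHLH factors that BMP induces in serum cultures, measured 10.5, 8.87, 10.7 and 12.1 CPM against 55.6, 54.9, 29.2 and 44.2. That is a change of 2.10 ± 0.20 with an adjusted p of 4.3e-05, and of 1.56 with an adjusted p of 5.4e-04 with the trend removed. Single libraries had a low, median and high of 6.15, 9.35 and 19.8 CPM in the first series, against 25.4, 48.5 and 62.9 in the second, which did not overlap. Skil, a repressor of SMAD signalling, measured 186, 172, 258 and 249 CPM against 111, 103, 159.8 and 168, a change of -0.68 ± 0.05, and stayed called at -0.33. The inhibitory Smad6 changed by 1.38 ± 0.11 and the ligand Nodal by 0.71 ± 0.10, and neither was called with the trend removed, at 0.21 and 0.12.

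Immediate early genes, which serum and handling induce within minutes, had 8 of 20 called higher and 1 lower, or 5 higher without A04, 09 or 47. Ier2 measured 38.6, 26.4, 25.4 and 23.8 CPM against 173, 156, 88.4 and 98.98, a change of 2.13 ± 0.13 with an adjusted p of 3.8e-06, and kept 0.91 with the trend removed, as Junb kept 1.70. Klf6 moved the other way, at 39.4 to 55.3 CPM in the first series and 27.4 to 37.5 CPM in the second, a change of -0.54 ± 0.05 and of -0.27 with the trend removed. The list had 3 higher and 2 lower there, so its members split. Myc measured 37.6, 19.1, 40.5 and 44.2 CPM against 66.1, 63.1, 54.9 and 61.4, a change of 0.82 ± 0.22 with an adjusted p of 0.014. With the trend removed Myc was at 0.53 and not called (adjusted p 0.13).

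In the Wnt list 7 of 18 were called higher and none lower, and none in either direction with the trend removed. Axin2, a feedback inhibitor of the pathway, changed by 0.59 ± 0.13, Sp5 by 1.69 ± 0.16 and Notum, a secreted Wnt deacylase, by 1.13 ± 0.16. In the FGF and ERK list 7 of 15 were higher and 1 lower, with Fgfr1 at 0.63 ± 0.11 and Phlda1 at 0.82 ± 0.12, which were 0.15 and -0.12 and not called with the trend removed. In that fit 1 and 2 were called. Of the SRF and YAP targets 4 of 19 were higher and 1 lower, with a median of -0.18, or 0.08 without A10. Srf itself, the serum response factor, measured 16.2 to 27.8 CPM in the first series and 48.1 to 69.4 CPM in the second, a change of 1.41 ± 0.07, and was at -0.21 with the trend removed.

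Stress genes showed the same dependence. Of 29 integrated stress response genes 18 were called higher and none lower, with a median of 0.45, and 5 and none with the trend removed, where the median was 0.03. Phgdh, the entry enzyme of serine synthesis, went from 136 ± 6.304 to 250.5 ± 10.7 CPM (mean ± SD, n = 4 clones), a change of 0.89 ± 0.04 that was 0.17 with the trend removed. Psph, the last enzyme of that pathway, changed by 0.51 ± 0.07 and by 0.50 with the trend removed, with an adjusted p of 0.001. Shmt2, of mitochondrial one-carbon metabolism, changed by 1.02 ± 0.06 and by 0.28, a call that the fuller fit lost (adjusted p 0.066). The transcription factor gene Cebpb changed by 1.98 ± 0.16 and by -0.07. Psph, with 49.6% transcript GC, was thus nearly the same in both fits, and Cebpb, with 67.2%, lost its change.

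The inducible heat shock genes Hspa1a and Hspa1b, near-identical copies that may share reads, were higher. Hspa1b measured 2.299, 2.34, 2.65 and 2.14 CPM against 10.8, 18.7, 11.1 and 14.3, a change of 2.54 ± 0.19, and Hspa1a changed by 2.49 ± 0.22. They kept 1.70 and 1.55 with the trend removed, while the small heat shock gene Hspb1 went from 1.38 ± 0.11 to 0.01. The heat shock list was otherwise mixed, with 5 of 14 higher and 4 lower, and 2 and none with the trend removed. The metallothioneins, which bind zinc and other metals, rose as a pair. Mt1 measured 36.1, 47.9, 33.3 and 41.1 CPM against 75.2, 92.2, 71.9 and 101, a change of 1.11 ± 0.14, and Mt2 changed by 1.06 ± 0.10, with 0.77 and 0.43 left with the trend removed. Ftl1, of ferritin, measured 985 to 1431 CPM in the first series and 2088 to 3671 CPM in the second, a change of 1.25 ± 0.06 and of 0.36. In the NRF2 and metal list as a whole 6 of 16 were higher and none lower, and the 3 called higher with the trend removed were Mt1, Mt2 and Ftl1.

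The p53 targets were split, 10 of 23 higher and 9 lower. Bbc3, which encodes PUMA, measured 4.97, 5.62, 4.53 and 4.16 CPM against 30.9, 33.4, 26 and 27.5, a change of 2.61 ± 0.08, and the exonuclease gene Aen 40.6, 37.9, 38.6 and 40.7 against 87.4, 93.5, 81.03 and 86.3, a change of 1.14 ± 0.06. Both stayed called with the trend removed, at 0.87 and 1.01. Bax, a pore former of apoptosis, changed by 1.00 ± 0.08 and Phlda3, an inhibitor of AKT, by 1.10 ± 0.09, and both were called lower with the trend removed, at -0.57 and -0.34. No common direction of p53 targets was present in either fit.

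In hypoxia and glycolysis 15 of 33 were higher and 4 lower, and none was lower without 09, A02 or 47. Gapdh measured 1857, 2009.7, 1808 and 1830.4 CPM against 3738, 3958, 3202 and 2950.4, a change of 0.88 ± 0.06, and kept 0.64 with the trend removed. Eno1 changed by 0.70 ± 0.05 and Pkm by 0.74 ± 0.05, and both were near 0 with it removed, at -0.05 and -0.04. Pfkl changed by 1.01 ± 0.08 and by 0.33. Of fatty acid synthesis, 3 of 14 were higher and 3 lower, with the fatty acid synthase Fasn at 0.94 ± 0.06 and its regulator Srebf1 at 1.45 ± 0.10, which kept 0.20 and 0.59. Of cholesterol synthesis, 8 of 24 were higher and 1 lower, with the mevalonate kinase Mvk at 1.38 ± 0.13 and 0.75. Interferon response genes had 3 of 21 higher and none lower, with Bst2, a surface restriction factor, at 0.93 ± 0.07, 0.33 with the trend removed and 0.14 in the fuller fit, where it was not called (adjusted p 0.26). With the trend removed, hypoxia and glycolysis had 5 higher and 3 lower, and fatty acid synthesis 3 and 1. Cholesterol synthesis then had 1 and 1, and interferon response 1 and none.

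Of 16 genes of folding stress in the endoplasmic reticulum, 3 were higher and 4 lower at first, then 0 and 1. Of 16 clock genes, 4 were higher and 2 lower, then 0 and 3, a share near the 18.3% of all genes.

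In growth genes many calls were also made with the trend removed. Ribosomal protein genes were called higher in 36 of 50 and lower in 7, with a median of 0.47, and with the trend removed in 27 and 11, with a median of 0.25. All 27 of the latter rises were also called at first, but only 2 of the 11 falls. Their summed level ran from 37208 to 39408 CPM in the first series, against 47933 to 53998 in the second series. Rplp1, of the ribosomal stalk, measured 253, 241, 247 and 221 CPM against 1475, 1504, 1242 and 1384, a change of 2.54 ± 0.06 with an adjusted p of 1.6e-07 and of 1.73 with the trend removed. Its stalk partner Rplp2 changed by 1.66 ± 0.07 and 1.18, Rpl18 by 1.27 ± 0.05 and 1.01, and Rpl8 by 1.39 ± 0.06 and 0.46. Members differed widely among themselves, from the called falls of Rps24 and Rps25, each -0.32, to the 2.54 of Rplp1, and Rpl36, which is outside the list, was higher still. Ribosomal protein genes have many pseudogenes that can share reads with them.

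Ribosome biogenesis and MYC targets had 10 of 23 higher and 6 lower, and 4 and 2 with the trend removed. Ppan, a factor of large subunit assembly, changed by 1.38 ± 0.08 and 0.81, and Rrp9, of the U3 small nucleolar particle, by 1.61 ± 0.08 and 0.56. Nuclear genes of oxidative phosphorylation were higher in 19 of 29 and lower in 3, and with the trend removed in 13 and 3. Of these genes 10 were called higher in both fits, and 0 were called lower in both. Cox5b, of complex IV, measured 77.7, 73.7, 70.5 and 71.9 CPM against 155, 151, 125 and 135, a change of 0.94 ± 0.05 and of 0.93 with the trend removed. Ndufa2, of complex I, changed by 1.18 ± 0.06 and 0.94, and Uqcrc1, of complex III, by 0.79 ± 0.05 and 0.52. Cox6a1, also of complex IV, turned from 1.17 ± 0.06 to -0.33.

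The mitochondrially encoded genes went the other way at first: 9 of 11 were lower and none higher, with a median of -0.27. Leaving out 1 clone gave fewer calls, 4 without 09 and 5 without A04, 30, A02 or 47. mt-Co1, of complex IV, measured 10365, 10076, 10868 and 10586 CPM against 8844, 8082, 9329 and 8159, a change of -0.28 ± 0.06 with an adjusted p of 0.0034. mt-Nd4 and mt-Nd5, of complex I, changed by -0.32 ± 0.07 and -0.40 ± 0.06. With the trend removed 1 was called, mt-Atp6, of ATP synthase. It measured 2.82, 3.04, 2.08 and 0.0312 CPM against 0.0615, 0.154, 0.109 and 0.0145, so that clone 30 of the first series lay within the range of the second, and without 09 the adjusted p was 0.059. This gene overlaps its neighbour and has near-identical nuclear copies, among which its reads can be split. The share of all counts from mitochondrially encoded genes was 2.39% ± 0.08 in first-series clones, against 1.88% ± 0.11 in second-series clones (SD, n = 4 clones), with no overlap, and the exact permutation test within genotype gave p = 0.056, the smallest value that its 36 assignments allow (adjusted over classes, 0.071).

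The replication-dependent histone genes, most of whose transcripts end in a stem-loop and not in a poly(A) tail, gave the largest shift of any list. Of 27 tested 25 were called higher and none lower, with a median of 2.42, and 19 and none with the trend removed, where the median was 1.95. Their summed level was low throughout, from 8.55 to 12.6 CPM in the first series, against 24.9 to 44.1 in the second series. Hist1h2ab measured 0.0489, 0.0662, 0.0499 and 0.0415 CPM against 2.67, 3.25, 5.27 and 5.99, a change of 6.27 ± 0.28 with an adjusted p of 6.1e-07 and of 4.49 with the trend removed. Hist1h3b changed by 4.99 ± 0.20, Hist1h2bk by 4.07 ± 0.30 and Hist1h3c by 3.61 ± 0.24. In all 4 genes the MD clones of the second series were the highest. These genes are similar in sequence and can share reads. The histone variants made as poly(A) RNA were also higher, in 11 of 12 with none lower, and with the trend removed in 7 with 1 lower. H2afj measured 10.2, 10.3, 6.403 and 5.97 CPM against 47.8, 49.5, 36.7 and 43.6, a change of 2.47 ± 0.11 and of 2.02 with the trend removed. H2afz, the variant at promoters, changed by 0.90 ± 0.07 and 0.93. H2afx, the variant phosphorylated at DNA breaks, turned from 1.22 ± 0.05 to -0.20.

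Cell cycle genes were called in both directions. Of 25 G1 and S phase genes 11 were higher and 7 lower, and 7 and 5 with the trend removed, of which 6 and 2 had the same call in both fits. The licensing factor Cdt1 measured 79.9, 84.9, 77.3 and 76.3 CPM against 208, 217, 172 and 172, a change of 1.26 ± 0.06 and of 0.47 with the trend removed. Gins2 and Mcm2, of the replicative helicase, changed by 0.72 ± 0.07 and 0.66 ± 0.08, and kept 0.40 and 0.53, while the primase gene Prim1 changed by -0.37 ± 0.05, and by -0.06 in the fuller fit, where it was not called (adjusted p 0.34). Of 25 G2 and M phase genes 6 were higher and 10 lower, and 1 and 4 with the trend removed. Cdc20, an activator of the anaphase-promoting complex, and the mitotic kinase Plk1 changed by 0.63 ± 0.06 and 0.73 ± 0.05, and the topoisomerase Top2a and the kinetochore motor Cenpe by -0.42 ± 0.05 and -0.52 ± 0.06. Of these 4, Cenpe alone was called with the trend removed, at -0.21, and none in the fuller fit, where Cenpe was at -0.12 (adjusted p 0.17) and no gene of the list was called lower.

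**Figure D4:**
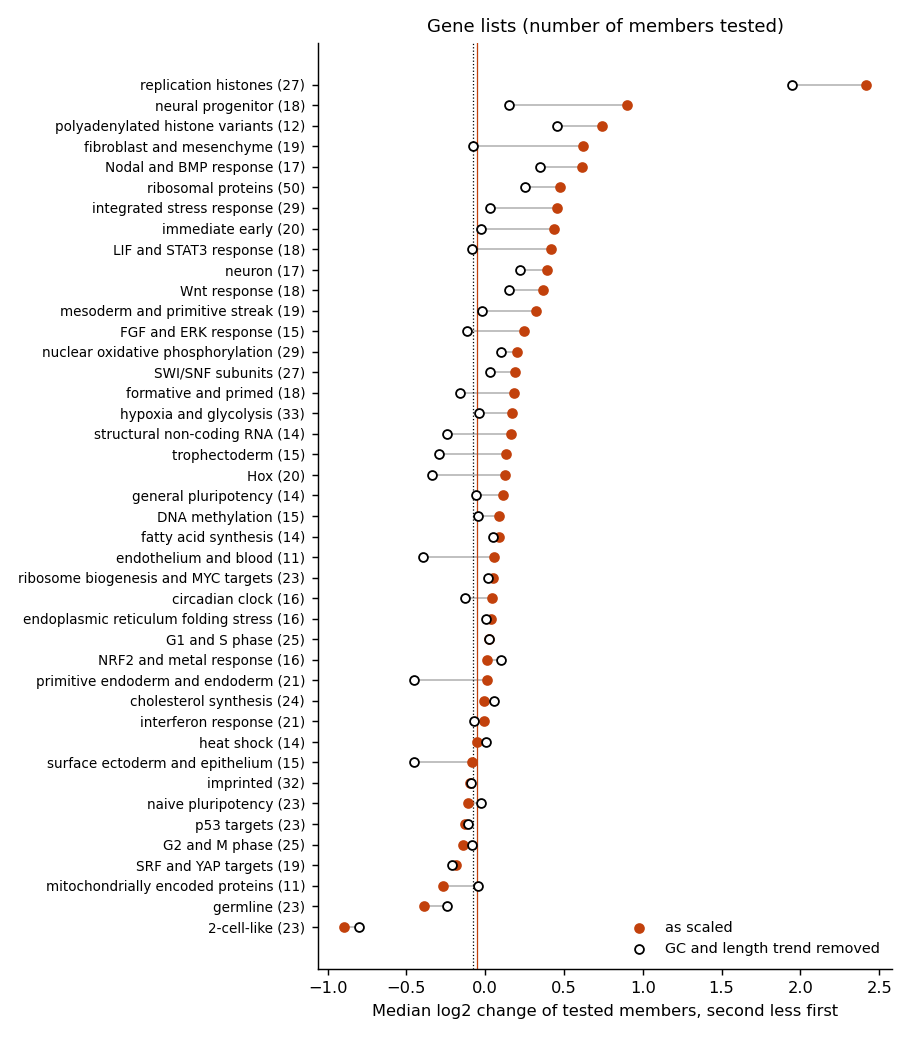
Median log2 change of each of the 42 gene lists, as scaled (filled) and with the GC and length trend removed (open), with the number of members tested in brackets; the solid and dotted lines are the medians of all 22025 genes, -0.05 and -0.08. Replication histones lie at 2.42 and 1.95, far from the other lists, and the LIF and STAT3 list goes from 0.42 to -0.08.

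Smarce1, the tagged gene, measured 123, 98.8, 109.5 and 111 CPM in the first series, against 110.2, 94.5, 122 and 112 in the second, a change of -0.02 ± 0.09 with an adjusted p of 0.9. Removing the trend left it called higher, at 0.31 with an adjusted p of 0.024, and the fuller fit did not call it, at 0.16 with an adjusted p of 0.27. Its RNA is not a check of the tag, which acts on the protein. SWI/SNF subunits were higher in 13 of 27 and lower in 3, and with the trend removed in 5 and 2. The ATPase Smarca4 measured 211 to 229.9 CPM in the first series and 326 to 368 CPM in the second, a change of 0.64 ± 0.06, and was not called with the trend removed, at 0.09. Bcl7c measured 21.5, 20.8, 20.2 and 18.97 CPM against 41.8, 42.5, 39.1 and 38.3, a change of 0.99 ± 0.05 and of 0.90 with the trend removed, and Bicra, of the non-canonical BAF complex, changed by 1.42 ± 0.10 and 0.57.

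Of 15 genes of DNA methylation 5 were higher and 2 lower, and 1 and 3 with the trend removed. Tet1, which oxidises methylcytosine, measured 1671, 1454, 1246 and 1256 CPM against 1049.9, 948, 836 and 781, a change of -0.64 ± 0.06 that stayed called at -0.30. The maintenance methyltransferase Dnmt1 and its partner Uhrf1 changed by 0.28 ± 0.04 and 0.46 ± 0.07, and Mbd3, of the NuRD complex, by 1.43 ± 0.08. None of these 3 was called with the trend removed. The de novo enzyme Dnmt3b measured 161, 167, 369 and 364 CPM against 182, 168, 428 and 327, with a change of 0.07 ± 0.08 that was not called (adjusted p 0.52): it differed by genotype in both series. Of 32 imprinted genes 6 were higher and 7 lower, not far from the 24.5% and 18.7% of all genes, and 5 and 3 with the trend removed. Phlda2, a growth restrainer of the placenta, changed by 1.61 ± 0.09 and Ndn, which encodes necdin, by 0.87 ± 0.16, and both stayed called with the trend removed, at 0.88 and 1.08. Dlk1, a Notch-like ligand, changed by 1.22 ± 0.24 and by 0.90 with the trend removed, a call that the fuller fit lost (adjusted p 0.11). The long non-coding RNA Kcnq1ot1 changed by -0.80 ± 0.11, and by -0.27 with the trend removed, where it was not called (adjusted p 0.14), and by -0.40 in the fuller fit, where it was (adjusted p 0.049). The nuclear RNA Malat1 measured 337, 567, 501 and 463 CPM against 371, 323, 511 and 564 and was not called (adjusted p 0.62). Of 14 structural non-coding RNAs tested 4 were higher and 3 lower, and 1 and 4 with the trend removed.

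Markers of other cell types were measured in both series, at summed levels from a few CPM for the Hox genes to far higher for endoderm, and their part in the series change was not tested. The mesoderm list summed to 15.1 to 18.8 CPM in the first series, against 15.3 to 21.2 in the second series, and 6 of 19 were called higher and 1 lower, Kdr, a VEGF receptor, at -0.83 ± 0.19. With the trend removed, none of the mesoderm list was called higher and 2 were lower. The trophectoderm list summed to 58.1 to 134 CPM in the first series, against 61.7 to 213 in the second series, with 2 of 15 higher and 2 lower, and Ascl2, a bHLH factor of the placenta, at 0.88 ± 0.19 and, with the trend removed, at -0.17 with an adjusted p of 0.55. In that fit none of the trophectoderm list was called higher and 2 were lower. The Hox genes summed to 5.09 to 13.6 CPM in the first series, against 5.15 to 13.5 in the second series. Of 20 Hox genes 1 was higher, and with the trend removed none was higher and 2 were lower. The primitive endoderm and endoderm list summed to 402 to 745 CPM in the first series, against 632 to 885 in the second series. It had 3 of 21 called higher, or 6 without A10, and 3 lower, and 1 and none with the trend removed. Within it Apoe, a lipid carrier, measured 81.1, 114, 77.3 and 79 CPM against 299, 321, 219 and 247, a change of 1.62 ± 0.10 and of 0.61 with the trend removed, while the endocytic receptor Cubn measured 8.403 to 31.3 CPM in the first series and 3.81 to 9.48 CPM in the second, a change of -1.57 ± 0.40 that was not called with the trend removed (adjusted p 0.06) and was -0.98 without A10.

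Neural progenitor genes were higher in 9 of 18 with none lower, with a median of 0.90 (0.50 without 45), and with the trend removed in 2, with a median of 0.15. Their sum ran from 180.2 to 305 CPM in the first series, against 304 to 521 in the second series, and most of it came from Vim. Vim, an intermediate filament gene also active outside neural cells, measured 117, 120.2, 172 and 151 CPM against 233, 224, 342 and 258, a change of 0.92 ± 0.09 and of 1.06 with the trend removed. Neuron genes were higher in 7 of 17 and lower in 1, and in 3 and none with the trend removed. The neurofilament Nefl was at 0.84 ± 0.09 and 0.87 in the 2 fits. Fibroblast and mesenchyme genes were higher in 3 of 19, or in 8 without A10, Col5a1 among them at 0.88 ± 0.16, and none was called with the trend removed. Endothelium and blood genes had 1 of 11 higher and 3 lower, and 1 and 2 with the trend removed. In the epithelial list 1 of 15 was higher and 2 lower, the latter being the transcription factor Grhl2 at -0.50 ± 0.08 and the splicing factor Esrp1 at -0.86 ± 0.19, with -0.49 and -0.79 left with the trend removed. Both were higher in MD than in R42A clones of the same series.

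The change was close in the R42A and the MD clones, which share no sample. Over 14570 genes above 1 CPM the series changes in the genotypes had a Pearson correlation of 0.88 and a Spearman correlation of 0.85, and 85.6% had the same sign. With the GC and length trend removed these were 0.75, 0.64 and 74.9%. The R42A clones alone gave 3699 calls, 17% of the genes tested there, with 13.6% higher and 3.39% lower, and the MD clones alone 7706, 35.5%, with 22.6% higher and 12.9% lower. Of 20961 genes tested in both, 3679 were called in R42A, and 3390 of these were called the same way in MD, which is 92.1% of the R42A calls and 44.3% of the MD calls. The counts of calls depend on the spread between 2 clones in each group and do not compare the sizes of the change.

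**Figure D5:**
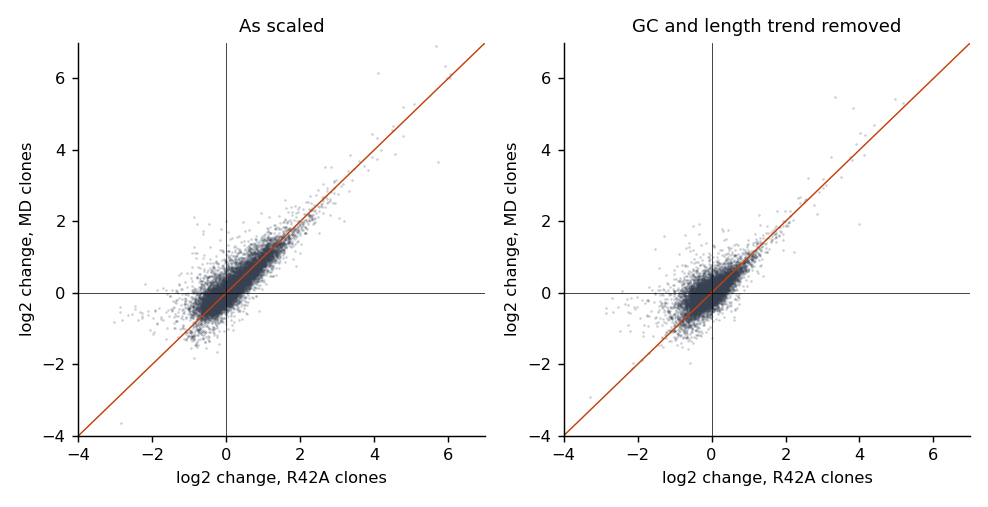
Series change in MD clones against that in R42A clones for 14570 genes above 1 CPM, in log2 units, as scaled (left) and with the GC and length trend removed (right); each point is a gene, the line marks equality, and 3 genes lie beyond the axes. The points follow the line in both panels, with a Pearson correlation of 0.88 on the left and 0.75 on the right.

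No gene passed the test for a different series change in MD and R42A clones in edgeR, with 685 of 22679 genes at an unadjusted p under 0.05. DESeq2 called 7 and limma voom 3. Of the genes with a mean of at least 5 CPM in the higher series that were called for the series without overlap of clones, those with the smallest interaction p are named. Xlr3b changed by -1.93 in R42A and -0.48 in MD (unadjusted p 2.8e-04, adjusted 0.94), and Xlr3a by -1.35 and -0.28. H2afj changed by 2.25 and 2.7. On the other side, Ajuba, a LIM protein of cell junctions, changed by 0.80 in R42A and 0.25 in MD, the clathrin light chain Cltb by 0.93 and 0.45, Srm, the spermidine synthase, by 0.88 and 0.42, and the Ras suppressor Rsu1 by -0.07 and -0.46. With the trend removed Ajuba, Cltb and Rsu1 were not called for the series, Srm was called lower at -0.44, and Rsu1 also lost its call without 09, 30, 45 or 47. None of these had an adjusted interaction p under 0.05, and with 2 clones in each group small differences are not detectable.

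Whole chromosomes shifted along with their GC content. For each clone and chromosome the median deviation of its genes from the mean of the 8 clones was taken. Chromosome 17, with a median transcript GC of 51.8%, was higher in the second series by 0.21, chromosome 7 by 0.19, chromosome 15 by 0.18 and chromosome 19 by 0.15. Chromosome X, with a median of 46.3%, was lower by 0.13, chromosome 13 by 0.11 and chromosomes 1 and 3 by 0.10 each. For each of these 8 chromosomes the series did not overlap and the exact permutation test gave p = 0.056, the smallest possible (adjusted over chromosomes, 0.085). Chromosome 8 was also higher by 0.19, but its clones overlapped, at 0.21, -0.05, -0.27 and -0.27 against 0.39, 0.27, -0.14 and -0.14. On chromosome 8 the R42A clones lay above the MD clones of the same series, and on chromosome 11 they lay below them. Over 20 chromosomes the shift and the median GC had a Pearson correlation of 0.94, as a description. With the GC and length trend removed, 2 of the first 8 chromosomes named, 1 and 7, changed sign relative to the median of all genes, at 0.02 and -0.003. Other chromosomes did so too. Chromosome 11, higher by 0.098 as scaled, then had a median change of -0.135, against -0.079 over all genes. Chromosome 18, lower by 0.070, then had -0.052.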

How the data were processed

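The authors deposited 1 table of expected counts by gene for each library, not normalised. Tools named in the submitters' processing notes, without roles, are RSEM 1.3.0, STAR 2.7.1a, DESeq2 and Trim Galore 0.60, with the build mm10. The annotation release and the use of strand are not given in the sources used here. Of 55573 genes, 55480 matched GENCODE M21 by identifier. ERCC entries, all at 0, and 1562 genes of chromosome Y were left out. After rounding to integers, the counts of each clone's 3 libraries were added up. The test was edgeR 4.0.16 (R 4.3.3) with TMM, filterByExpr (minimum count 10), robust quasi-likelihood, and genotype and library series as terms (5 residual degrees of freedom). It was also run on simulated data with few changed genes and no GC gradient, which does not bear on data with such a gradient. Changes in each genotype and the interaction came from a fit of 4 groups. Log2 CPM had a prior count of 2. GC content and length of merged exons were removed as an offset in an alternative. Named genes are the 12 with the largest change per direction among called, named protein coding or lncRNA genes with a mean of at least 5 CPM in the higher series and without overlap of clones, up to 4 called members of each list with the smallest p and at least 1 CPM in the higher series, the 4 of the first filter with the smallest interaction p per direction, and 9 fixed genes, and the text gives a part of these. The comparison, the lists and the rule were chosen with earlier results of these data known.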

Additional observations from a re-analysis of the deposited data

Results flagged for a closer look

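Values of the 4 clones of a series were compared for each gene, chromosome and RNA class named. In 15 of 302 such groups of 4 the highest or lowest clone lay far from the other 3, by a gap above Dixon's 95% critical value relative to the whole range. Chance flags about 1 in 20 groups, which is close to that share.

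In the first series, A04 was highest for Pou5f1 at 869 CPM against 782 to 796 in the others, and for Bax at 108 against 98.1 to 99.4. A10 was highest for Pkm at 1799 CPM against 1652 to 1669 and for Apoe at 114 against 77.3 to 81.1, and lowest for Rrp9 at 46.96 against 53.9 to 54.4. Clone 30 was lowest for mt-Atp6 at 0.0312 CPM against 2.08 to 3.04.

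In the second series, A02 was lowest for Foxd3 at 23.7 CPM against 30.1 to 31.5. Clone 47 was highest for Sycp2 at 2.88 CPM against 1.94 to 2.06, and clone 45 for Ndn at 28.8 against 16.7 to 17.7.

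For chromosomes, the median deviation of A02 on chromosome 15 was 0.208 against 0.0392 to 0.0649 in the other second-series clones. In the first series A10 was highest on chromosome 17, at -0.0727 against -0.113 to -0.109 in the others. A04 was highest on chromosome 13, at 0.111 against 0.0342 to 0.0403, and lowest on chromosome X, at -0.00323 against 0.0862 to 0.103. Of RNA classes, pseudogenes took 4.53% of counts in A01 against 4.35% to 4.37% in the other second-series clones, and the replication histone list 0.00135% in A04 against 0.000888% to 0.000939% in the other first-series clones.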

How the results depend on the processing

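The main test called 9514 genes, 5387 higher and 4127 lower. Leaving out each clone in turn gave 7648 to 10925 calls, with 4695 to 6115 higher and 2953 to 4810 lower. Removing the GC and length trend gave 4024 calls, 2045 higher and 1979 lower, and removing the GC of the coding part and exon number as well, chosen after seeing the data, gave 3385, 1756 higher and 1629 lower. Without the genotype term 5815 were called, 2011 of them lower. The R42A clones alone gave 3699, 2963 higher and 736 lower. Upper quartile scaling called 6884 lower. Single libraries called 6508 lower with no replicate block and 6574 with a replicate block. Same-numbered libraries of different clones in a series had a median correlation of deviations of 0.31 over 36 pairs, with some negative, so the numbers were not taken as pairs, though 18 of 24 libraries were closest to the same number in another clone.

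The interaction, at 0 calls, gave 0 without each clone in turn, 1 with no filter, 7 in DESeq2, 3 in limma voom, and 12 on single libraries or 20 with the replicate block.

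Of 133 named genes, 27 changed sign under a GC alternative. With the GC and length trend removed they were Nanog (0.014), Tcf15 (-0.57), Etv4 (-0.33), Bcl3 (-0.32), Pim3 (-0.23), Phlda1 (-0.12), Srf (-0.21), Cebpb (-0.069), Bax (-0.57), Phlda3 (-0.34), Eno1 (-0.051), Pkm (-0.042), Cox6a1 (-0.33), H2afx (-0.20), Smarce1 (0.31), Dnmt1 (-0.051), Mbd3 (-0.015), Dnmt3b (-0.21), Malat1 (0.19), Ascl2 (-0.17), Ajuba (-0.34), Rsu1 (0.0022) and Srm (-0.44). With the coding part and exon number removed as well they were Esrrb (-0.080), Tcf15 (-0.41), Etv4 (-0.28), Stk31 (0.018), Bcl3 (-0.37), Pim3 (-0.29), Nodal (-0.015), Phlda1 (-0.19), Srf (-0.23), Hspb1 (-0.14), Bax (-0.57), Phlda3 (-0.37), Cox6a1 (-0.50), H2afx (-0.21), Smarce1 (0.16), Dnmt3b (-0.096), Malat1 (0.24), Ascl2 (-0.28), Ajuba (-0.45) and Srm (-0.47). In MD clones alone Smarce1 was at 0.12 and Malat1 at 0.20, and under upper quartile scaling Dnmt3b at -0.088. Of the 3 named genes that changed sign when a clone was left out, none was called: Smarce1 ranged from -0.056 to 0.070, Dnmt3b from -0.0055 to 0.15 and Malat1 from -0.20 to 0.13. Of the 8 chromosomes whose shifts were followed here, 1 and 7 changed sign with the trend removed, to 0.021 and -0.0028. Without a clone, the series difference in the RNA class share of pseudogene counts, in percentage points, ranged from -0.078 to 0.052 and that in the RNA class share of small and structural RNA from -4.3e-04 to 3.2e-05. For the sign changes the cause was not tested beyond the removal of the trend.

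Depth was higher in the first series, and thinning the clone sums to the smallest gave 9422 calls. The design of 4 clones against 4 within genotype allows no exact p under 0.056.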
